A study of Homo sapiens with 23 samples.

Results

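The oxidative phosphorylation (OXPHOS) subunit genes encode the protein parts of respiratory complexes I to IV and of the ATP synthase, complex V. Members were chosen by gene symbol alone, as the protein-coding genes for named subunits of these complexes together with every protein-coding gene of the mitochondrial genome, and 88 of the 57875 genes listed in each file met the rule. Of these, 75 are nuclear genes (37 for complex I, 4 for complex II, 6 for complex III, 9 for complex IV and 19 for complex V) and 13 are mitochondrial genes (7 for complex I, 1 for complex III, 3 for complex IV and 2 for complex V). All 88 passed the filter on low counts and were among the 22842 genes tested.

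Whole-cell RNA was sequenced from HCT116, a human colorectal carcinoma line, with intact AGO genes (wild type) and from 4 lines derived from HCT116 by CRISPR editing, with AGO1, AGO2, AGO1 and AGO2 (AGO1/2), or AGO1, AGO2 and AGO3 (AGO1/2/3) knocked out. Argonaute (AGO) proteins are the effectors of microRNA-guided silencing, and the design asked how steady-state RNA changes as more of them are removed. Each line gave 3 samples, grown in the same medium without further treatment and labelled passage 12 to 18. Each genotype was a single edited line, so the genotype and other properties of that line cannot be told apart, and p-values measure only the spread between samples of one line. Total counts ranged from 27709971 to 45271146 per sample. The AGO2 knockout samples had 45271146, 44582046 and 40419152, and AGO1/2/3 knockout replicate 1 had 40567975. All other samples had 32381721 or fewer, and the part of depth in the members' values was not tested.

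Complexes I, III and IV pass electrons from NADH and ubiquinol to oxygen and pump protons across the inner mitochondrial membrane, complex II feeds electrons from succinate, and complex V uses the proton gradient to make ATP. The subunits come from both genomes. The mitochondrial genome is transcribed inside the organelle as long precursors that are cut at the tRNAs, and nuclear subunit genes are transcribed one by one, many of them from promoters bound by NRF1, GABP and YY1. Complex II is the only complex with no mitochondrially encoded part.

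Pairs of mitochondrial genes lie on the same transcript and share bases, which bears on how reads are split between them. MT-ATP8 and MT-ATP6 overlap by 46 bases on the plus strand of the mitochondrial chromosome (8527 to 8572), and MT-ND4L and MT-ND4 by 7 bases (10760 to 10766). The stretches below are from the human reference annotation (GENCODE 44, hg38), 5′ to 3′, with capitals for bases that belong to both genes. The first spans 8515 to 8544 and the second 10748 to 10766.
MT-ATP8/MT-ATP6: ctgagaaccaaaATGAACGAAAATCTGTTC
MT-ND4L/MT-ND4: aaacctactccaATGCTAA
In both stretches the capitals begin with the start codon of the second gene, so a read over it can be assigned to either gene. The separate values of these genes are uncertain to that extent, as are those of nuclear members with near-identical copies, of ATP5MGL, and of the read-through gene ATP5MF-PTCD1, which shares exons with ATP5MF.

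The targeted genes were checked first, in CPM, counts scaled to a common library total with TMM normalization factors. AGO1 stood at 138, 108 and 146 CPM in wild-type cells and between 28.7 and 39.5 CPM in the 9 samples of the lines edited at AGO1. AGO3 fell by 1.12 ± 0.12 on the log2 scale in AGO1/2/3 knockout cells (SE; edgeR adjusted p = 3.4e-06). AGO2 RNA was at 379, 459 and 382 CPM in wild-type and 262, 314 and 283 CPM in AGO2 knockout cells, but at 518, 558 and 538 CPM in AGO1/2/3 knockout cells. The AGO1/2 line had 321, 332 and 365 CPM, not called against wild type (log2 difference -0.26 ± 0.10). Its RNA level therefore did not check the AGO2 label in either of these lines. Of the epithelial markers, KRT8, KRT18 and KRT19 were at 253 CPM or more in all samples and VIL1 was at 10 counts or fewer in every sample. In AGO1/2/3 knockout cells EPCAM, CDH1 and CDX2 fell by 1.74, 3.51 and 0.58 on the log2 scale, KRT8 rose by 0.41, and KRT18 and KRT19 were not called, at 0.28 and 0.02. The part of these marker differences in the members' values was not tested. Blood, endothelial and fibroblast markers PTPRC, PECAM1 and DCN were at 60 counts or fewer in every sample, while the fibroblast collagen COL1A1 had 260 to 1045 counts. One wild-type library stood apart: in wild-type replicate 2, 72 of the 75 nuclear members lay below their wild-type mean, with a median log2 difference of -0.31, against 0.11 and 0.22 in wild-type replicates 1 and 3. Counts and medians of nuclear members against wild type are therefore also given without it. AGO1 knockout replicate 3 was also low within its line, with a median of -0.02 against the wild-type mean. AGO1 knockout replicates 1 and 2 were at 0.28 and 0.21.

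Mitochondrial members were far more abundant per length than nuclear members in wild-type cells. On the scale of CPM per 1000 bases of the canonical transcript, the 13 mitochondrial genes ranged from 1458 for MT-ND6 to 13443 for MT-CO3, with a median of 6724. The 75 nuclear genes ranged from 1.25 for ATP5MGL to 311 for ATP5F1B, the catalytic beta subunit of the ATP synthase, with a median of 58.3. The ranges did not overlap, and MT-ND6, the only protein-coding gene read from the other strand of the mitochondrial genome, was the lowest of its group. The libraries were stranded, but the strand setting of the counting is not given in the sources used here, so reads from the opposite strand could not be told apart from those of MT-ND6. The 3 highest mitochondrial genes were those of complex IV. Of these MT-CO1, at 10681, and MT-CO2, at 10038, were neighbours in the order. Before division by lengths of 1542 and 684 bases their levels were 16470 ± 1636 and 6866 ± 489 CPM (SD, n = 3), so their order was within the replicate spread. Canonical transcripts were chosen from the annotation and reach 11660 bases for NDUFS1, so a nuclear value depends on that choice.

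**Figure D1:**
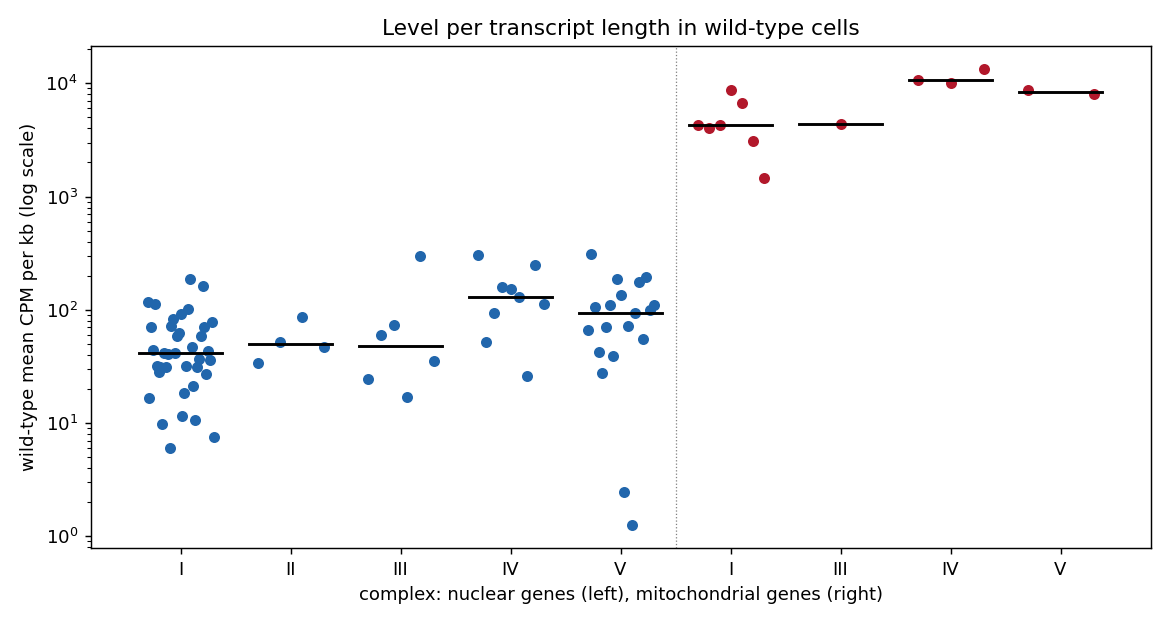
Level of each member in wild-type cells, as mean CPM per 1000 bases of transcript over 3 samples on a log axis, by complex for nuclear genes (blue, left of the dotted line) and mitochondrial genes (red, right). Each point is 1 gene and each bar a group median. The lowest mitochondrial gene, at 1458, lies above the highest nuclear gene, at 311.

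As a share of all counts, nuclear members were lowest in AGO1/2/3 knockout cells. The 75 nuclear genes together took 0.668%, 0.494% and 0.689% of counts in the wild-type samples and 0.427%, 0.436% and 0.460% in the AGO1/2/3 knockout samples. All 3 AGO1/2/3 knockout samples lay below every wild-type sample, replicate 2 included. In AGO1/2 knockout cells the shares were 0.568%, 0.536% and 0.521%, which overlapped wild type because of replicate 2. AGO1 knockout samples ranged from 0.562% to 0.724% and AGO2 knockout samples from 0.660% to 0.716%, and both lines overlapped wild type.

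The 13 mitochondrial genes took 7.82%, 8.33% and 8.29% of counts in wild-type cells. Their share was 8.59%, 9.32% and 10.2% in AGO1 knockout cells and 8.51%, 8.62% and 9.10% in AGO1/2 knockout cells, above every wild-type sample in both lines. In AGO1/2/3 knockout cells it was 7.42%, 6.63% and 6.66%, below every wild-type sample. AGO2 knockout samples, at 8.64%, 7.40% and 7.76%, overlapped wild type. The ratio of mitochondrial to nuclear member counts was 13.5 ± 2.89 in wild type (SD, n = 3). It was 14.7 ± 3.21 for the AGO1 line, 11.5 ± 1.37 for AGO2, 16.2 ± 1.23 for AGO1/2 and 15.7 ± 1.52 for AGO1/2/3, and the samples of each line overlapped those of wild type. For AGO1/2 and AGO1/2/3 the overlap rested on wild-type replicate 2, at 16.9, and all samples of both lines lay above wild-type replicates 1 and 3, at 11.7 and 12.0. Small structural RNAs such as RN7SL1 and RN7SK, which enter the same totals, took 4.75%, 5.70% and 5.65% of counts in wild-type cells and lay above all wild-type samples in every knockout line, at up to 8.29% in AGO1 knockout cells. Shares were also computed with these RNAs and the mitochondrial ribosomal RNAs left out of the totals. AGO1/2/3 knockout samples still lay below every wild-type sample for both groups of members, at 7.08% to 8.00% against 8.21% to 8.83% for mitochondrial genes. AGO1 and AGO1/2 knockout samples still lay above wild type for mitochondrial genes, and the other shares still overlapped wild type. In bulk samples, fewer cells expressing a gene and less RNA per cell cannot be told apart, here and in every value that follows.

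**Figure D2:**
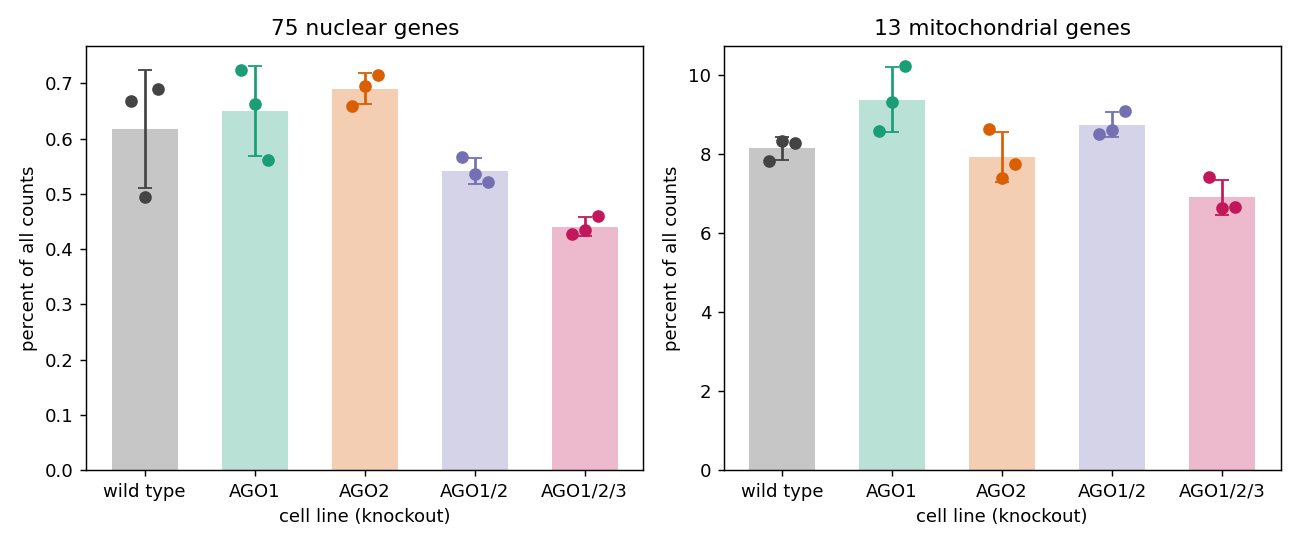
Percent of all counts taken by the 75 nuclear members (left) and the 13 mitochondrial members (right) in each line. Points are single samples, bars the mean of 3 samples and error bars the SD. AGO1/2/3 knockout samples sit below every wild-type sample in both panels, and AGO1 and AGO1/2 knockout samples sit above wild type for the mitochondrial genes only.

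In AGO1/2/3 knockout cells the called nuclear members lay in one direction. Compared with wild type, 33 of 75 were called lower and 0 higher by edgeR's quasi-likelihood test at an adjusted p of 0.05 or less. Values after ± on the log2 scale are SE here and in all comparisons. Over all genes tested, 19.8% were called lower and 20.3% higher. At an unadjusted p of 0.05 or less, 39 members were lower and 1 higher, and DESeq2's Wald test called 34 lower and 0 higher. The median log2 fold change of nuclear members was -0.30, against -0.01 over all genes tested, and 64 of 75 had a negative value. Of the 13 mitochondrial members, 2 were called lower and 0 higher, with a median of -0.10, which was -0.16 without wild-type replicate 1 or AGO1/2/3 knockout replicate 1 and -0.14 without wild-type replicate 2. Without wild-type replicate 2 the count of nuclear members called lower was 53 and the median -0.46. Shares of all genes tested without this library are not given, here or in the other comparisons. Short genes also had more calls on the lower side. Among 687 other protein-coding genes with canonical transcripts of 1000 bases or less and an average of 1 CPM or more, 37.3% were called lower and 10.9% higher, with a median of -0.21, and the canonical transcripts of nuclear members had a median length of 763 bases. These short genes were also low in wild-type replicate 2. Their median log2 deviation from the wild-type mean was -0.15 there, against 0.02 and 0.15 in wild-type replicates 1 and 3. The part of transcript length in the members' values was not tested.

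**Figure D3:**
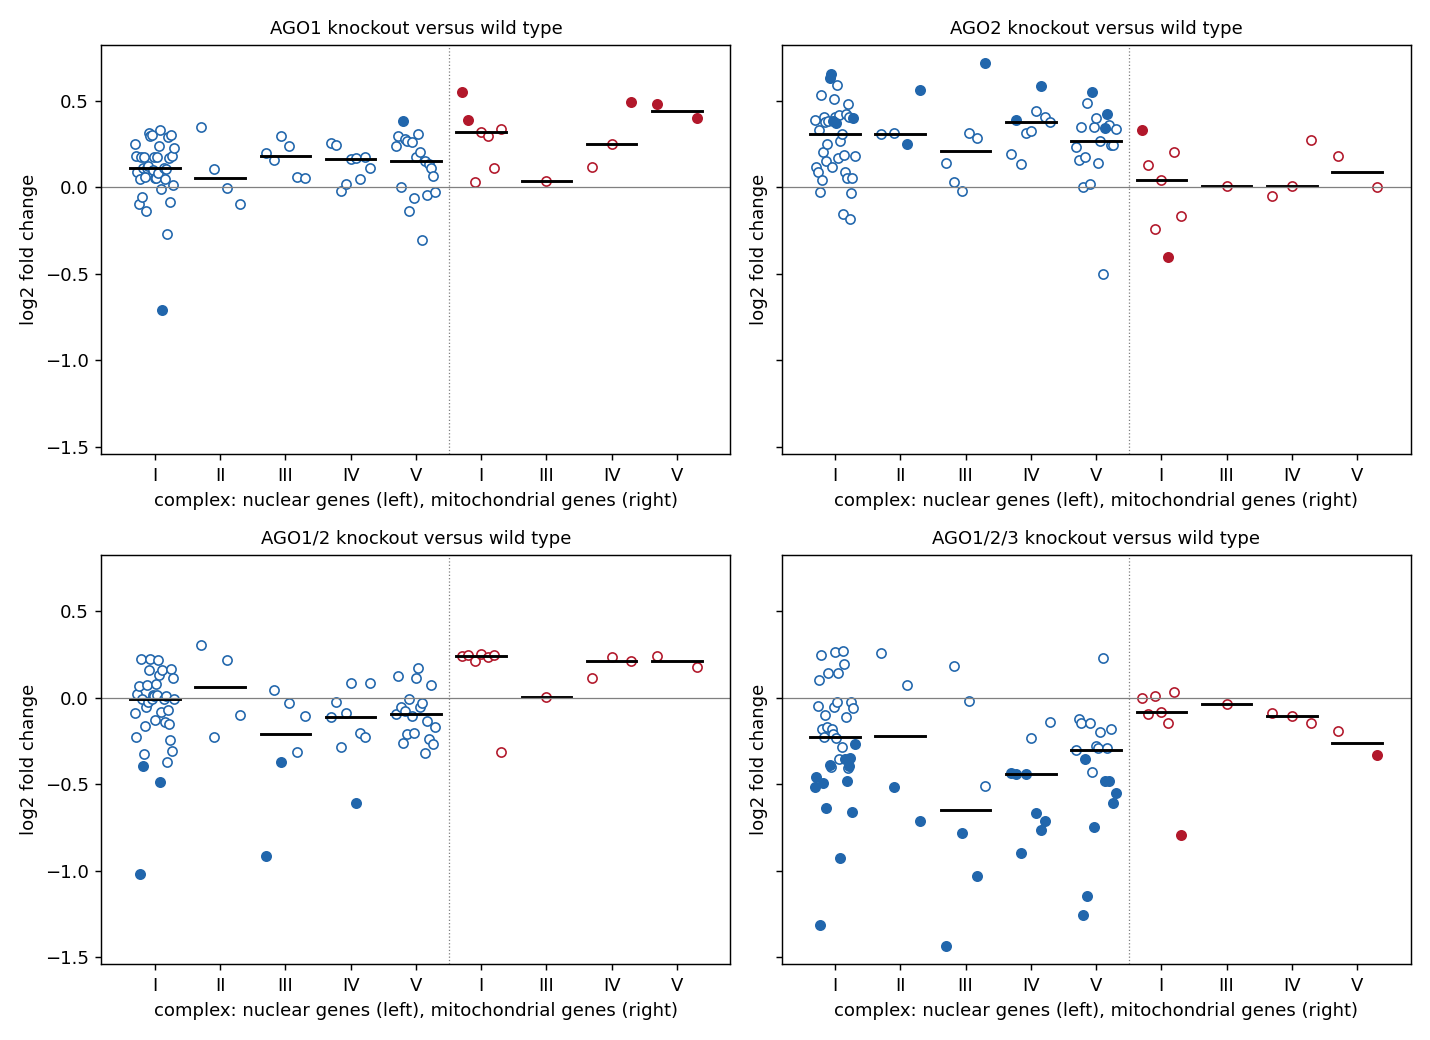
Log2 fold change of every member against wild type in the 4 knockout lines, by complex, for nuclear genes (blue, left of the dotted line) and mitochondrial genes (red, right). Filled points passed an adjusted p of 0.05, open points did not, and bars are medians. In the AGO1/2/3 panel 33 nuclear points are filled, all below 0. The 4 panels share the same wild-type samples.

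Complex I, the NADH dehydrogenase, had 13 of 37 nuclear members lower and 0 higher, with a median of -0.23. These 13 include NDUFA4, which is counted here by its name but is now placed in complex IV and is not counted there. NDUFA13, an accessory subunit also known as GRIM-19 (chromosome 19, 19515736 to 19529054, plus strand, hg38), was the lowest. It stood at 57.8, 59.0 and 60.7 CPM in wild-type cells and 26.4, 22.7 and 22.3 CPM in AGO1/2/3 knockout cells. The groups were far apart, with the wild-type samples within 3 CPM of each other, and the log2 fold change was -1.31 ± 0.09 (SE; edgeR adjusted p = 4.1e-08), 2.48-fold lower. NDUFB9, an accessory subunit of the membrane arm, went from 146, 100.3 and 143 to 67.8, 64.4 and 72.2 CPM, a log2 fold change of -0.93 ± 0.14 (edgeR adjusted p = 8.8e-05). NDUFV1, which binds NADH and the flavin, went from 63.7, 46.2 and 59.9 to 38.4, 33.6 and 35.6 CPM, a log2 fold change of -0.66 ± 0.12 (edgeR adjusted p = 0.00037). Every AGO1/2/3 knockout sample lay below every wild-type sample for both genes. The smallest called differences were those of NDUFS7, which holds an iron-sulfur cluster next to the ubiquinone site, a log2 fold change of -0.35 ± 0.09 (edgeR adjusted p = 0.0078), and of NDUFV3, a small subunit of the flavoprotein part, a log2 fold change of -0.27 ± 0.08 (edgeR adjusted p = 0.013). NDUFS1, the largest core subunit, was not called, with a log2 difference of 0.20 ± 0.09, although its knockout samples lay above all wild-type samples.

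Complex II, succinate dehydrogenase, was divided. SDHD, a membrane anchor, stood at 68.0, 45.3 and 74.5 CPM in wild-type and 36.4, 38.8 and 39.2 CPM in AGO1/2/3 knockout cells, a log2 fold change of -0.71 ± 0.15 (edgeR adjusted p = 0.0011). SDHB, the iron-sulfur subunit, went from 56.8, 39.6 and 62.8 to 33.3, 36.3 and 41.7 CPM, a log2 fold change of -0.52 ± 0.16 (edgeR adjusted p = 0.016). The SDHD samples did not overlap, while those of SDHB overlapped at wild-type replicate 2. SDHA, the flavoprotein that oxidizes succinate, had 102, 58.7 and 112 CPM in wild-type and 107, 108 and 112 CPM in AGO1/2/3 knockout cells, a log2 difference of 0.26 ± 0.17 that was not called. SDHC, the other anchor, had a log2 difference of 0.07 ± 0.08 and was not called either. Whether SDHA and SDHD differed from each other in their response was not tested.

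Complex III, the cytochrome bc1 complex, had the lowest nuclear median, -0.65, with 3 of 6 members lower. UQCRB, a small subunit next to the ubiquinone-binding site (chromosome 8, 96222947 to 96235546, minus strand, hg38), had the lowest log2 fold change of all 88 members. It stood at 203, 161 and 252 CPM in wild-type cells and 71.4, 74.9 and 81.8 CPM in AGO1/2/3 knockout cells, and the log2 fold change was -1.43 ± 0.13 (SE; edgeR adjusted p = 4.9e-07), 2.7-fold lower. UQCRH, the hinge protein that helps dock cytochrome c, went from 175, 115 and 188 to 76.6, 76.5 and 80.1 CPM, a log2 fold change of -1.03 ± 0.14 (edgeR adjusted p = 3.2e-05). UQCRC2, a core protein facing the matrix, went from 141, 118 and 159 to 78.7, 80.0 and 84.3 CPM, a log2 fold change of -0.78 ± 0.10 (edgeR adjusted p = 2.3e-05). None of the AGO1/2/3 knockout samples overlapped wild type for these 3 genes. UQCRC1, the partner of UQCRC2, and UQCRFS1, the Rieske iron-sulfur protein, were not called, with log2 differences of 0.18 and -0.02.

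Complex IV, cytochrome c oxidase, had the highest share of called members, 7 of 9, with a median of -0.44 and no member above 0. COX5B, which surrounds the catalytic core and binds zinc, went from 64.9, 58.4 and 72.2 to 35.4, 33.0 and 36.2 CPM, a log2 fold change of -0.90 ± 0.10 (edgeR adjusted p = 4.4e-06). COX7B, a small membrane subunit, went from 63.4, 45.9 and 81.2 to 36.0, 36.4 and 39.6 CPM, a log2 fold change of -0.77 ± 0.18 (edgeR adjusted p = 0.0034). COX4I1, the ubiquitous form of the subunit through which ATP regulates the enzyme, went from 239, 186 and 265 to 168, 163 and 178 CPM, a log2 fold change of -0.44 ± 0.12 (edgeR adjusted p = 0.007). COX5A, its neighbour in the assembly of the enzyme, fell by 0.44 ± 0.13 on the log2 scale (SE; edgeR adjusted p = 0.012). For all 4 genes the AGO1/2/3 knockout samples lay below every wild-type sample. COX6C, the member on chromosome 8, fell by 0.67 ± 0.16 on the log2 scale (SE; edgeR adjusted p = 0.004).

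Complex V had 8 of 19 nuclear members lower, with a median of -0.30. ATP5F1D, the delta subunit of the rotating central stalk (chromosome 19, 1241746 to 1244825, plus strand, hg38), stood at 46.5, 37.6 and 43.6 CPM in wild-type and 19.6, 16.4 and 17.4 CPM in AGO1/2/3 knockout cells. Its samples did not overlap, and the log2 fold change was -1.26 ± 0.11 (SE; edgeR adjusted p = 3.8e-07), 2.39-fold lower. Its partner in the stalk, ATP5F1E, had a smaller difference, a log2 fold change of -0.36 ± 0.13 (edgeR adjusted p = 0.046). The alpha, beta and gamma subunits ATP5F1A, ATP5F1B and ATP5F1C were not called, with log2 differences of -0.30, -0.12 and -0.14. In the peripheral stalk, which holds the head still, 3 of 4 genes were lower, and among 5 small membrane subunits 2 were lower, ATP5ME and ATP5MJ. ATP5MJ, a short proteolipid, fell by 0.48 ± 0.11 on the log2 scale (SE; edgeR adjusted p = 0.0024).

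Subunit c forms the rotating ring and is made as the same mature protein from 3 genes. ATP5MC1 stood at 51.6, 27.4 and 57.4 CPM in wild-type and 19.8, 18.6 and 23.1 CPM in AGO1/2/3 knockout cells, a log2 fold change of -1.15 ± 0.22 (edgeR adjusted p = 0.00071). ATP5MC3 had 111, 66.0 and 126 CPM in wild-type and 69.4, 74.6 and 81.0 CPM in AGO1/2/3 knockout cells, a log2 difference of -0.43 ± 0.19 that was not called. ATP5MC2 had 67.9, 56.6 and 82.5 and 60.2, 60.3 and 66.3 CPM, a log2 difference of -0.15 ± 0.12, also not called. The ATP5MC1 samples did not overlap between the groups, and those of the other genes overlapped at wild-type replicate 2.

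**Figure D4:**
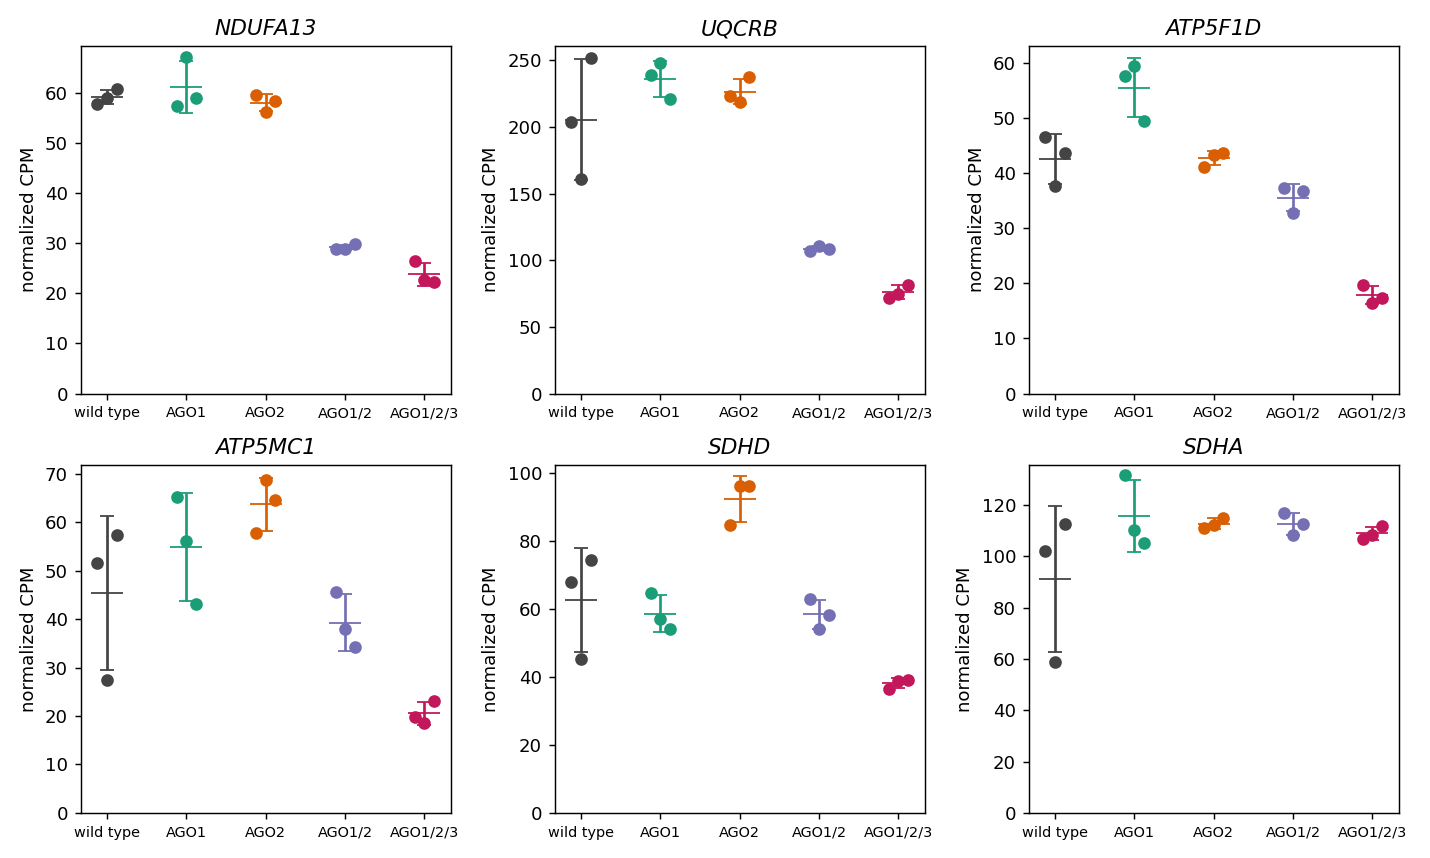
Normalized CPM of 6 nuclear members in every sample, by line. Points are samples, and the horizontal mark and error bar give the mean and SD of 3 samples. NDUFA13 and UQCRB are low in AGO1/2 as well as AGO1/2/3 knockout samples, ATP5F1D and ATP5MC1 in AGO1/2/3 knockout cells, and SDHA overlaps between wild type and AGO1/2/3 knockout cells.

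Of the mitochondrial genes, MT-ND6 and MT-ATP8 were called lower in AGO1/2/3 knockout cells. MT-ND6, a membrane subunit of complex I, had 967, 499.9 and 829 CPM in wild-type and 410.3, 449.7 and 465 CPM in AGO1/2/3 knockout cells, a log2 fold change of -0.79 ± 0.23 (edgeR adjusted p = 0.013). The knockout samples lay below wild type, but wild-type replicate 2 was close to them, and without wild-type replicate 1 MT-ND6 was no longer called. MT-ATP8, a small membrane subunit of complex V, had 1584, 1694 and 1710.1 and 1432, 1239 and 1298 CPM, a log2 fold change of -0.33 ± 0.10 (edgeR adjusted p = 0.019), a call that was lost without AGO1/2/3 knockout replicate 2. The other 11 mitochondrial genes lay between -0.19 and 0.03 on the log2 scale and were not called, with MT-ND5, the largest mitochondrial gene of complex I, at 0.03 ± 0.12. When only total counts were used for scaling, 6 of 13 were called lower. That scaling also lowered the median of all genes tested to -0.15, with 5962 genes called lower against 4522 in the main fit.

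In AGO1/2 knockout cells fewer nuclear members were called. Against wild type, 6 of 75 were lower and 0 higher, with a median of -0.07, while 8.35% of all genes tested were lower and 8.37% higher. NDUFA13 stood at 28.9, 28.9 and 29.8 CPM, less than every wild-type sample, a log2 fold change of -1.02 ± 0.09 (edgeR adjusted p = 2.4e-06). UQCRB stood at 107, 111 and 109 CPM, a log2 fold change of -0.92 ± 0.13 (edgeR adjusted p = 0.00016). COX6C was at 57.6, 63.8 and 68.7 CPM and NDUFB9 at 99.0, 81.4 and 97.5 CPM, with log2 fold changes of -0.61 and -0.49. The remaining calls were NDUFA4, which was named as a complex I subunit and is now placed in complex IV, at -0.40, and UQCRC2, at -0.37. COX6C and NDUFA4 overlapped wild type at replicate 2. Without wild-type replicate 2, 16 nuclear members were lower and the median was -0.25, while without wild-type replicate 3 the median turned to 0.026. The median was -0.04 without wild-type replicate 1 and -0.12 without AGO1/2 knockout replicate 1. The number lower was 2 without wild-type replicate 3 or AGO1/2 knockout replicate 2, and 3 without wild-type replicate 1 or AGO1/2 knockout replicate 1. At an unadjusted p of 0.05 or less 1 member was higher, and DESeq2's Wald test also called 1 higher.

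The 3 members on chromosome 8, UQCRB, NDUFB9 and COX6C, were lower in each line that lacked AGO1 together with AGO2 and were not called in the lines with a single AGO gene removed. All 3 lie on the long arm, and the long arm of chromosome 8 was lower as a whole. Over its 361 genes with an average of 1 CPM or more, the median log2 value was -0.51 for the AGO1/2 line, -0.46 for AGO1/2/3, 0.00 for AGO1 and 0.03 for AGO2. The part of this shift in the values of the 3 members was not tested. Outside chromosome 8, 3 of 72 nuclear members (4.17%) were lower in AGO1/2 knockout cells, below the 8.35% of all genes tested. In AGO1/2/3 knockout cells 30 of 72 (41.7%) were lower, against 19.8% of all genes tested, with a median of -0.29.

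None of the 13 mitochondrial genes was called in AGO1/2 knockout cells by edgeR at an adjusted p of 0.05 or by DESeq2's Wald test, and 5 were higher at an unadjusted edgeR p of 0.05 or less. Without wild-type replicate 3, 1 gene was called higher. Their median was 0.23, and 12 of 13 were above 0. MT-ND6 was the exception, at 691, 536 and 616 CPM and a log2 difference of -0.32 ± 0.23.

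AGO1/2/3 knockout cells were also compared with AGO1/2 knockout cells, a contrast in which wild-type samples enter only through the shared spread. Of the nuclear members, 19 of 75 were lower and 0 higher, against 10.0% lower and 11.9% higher over all genes tested, and the median was -0.24. The lowest were ATP5F1D, a log2 fold change of -0.99 ± 0.11 (edgeR adjusted p = 1.2e-05), ATP5MC1, a log2 fold change of -0.94 ± 0.22 (edgeR adjusted p = 0.0067), and UQCRH, a log2 fold change of -0.72 ± 0.14 (edgeR adjusted p = 0.0017). ATP5F1D stood at 37.2, 32.7 and 36.7 CPM in AGO1/2 knockout cells, UQCRH at 126, 122 and 136 CPM and ATP5MC1 between 34.2 and 45.7 CPM, all above the AGO1/2/3 knockout samples. The smallest called differences were those of NDUFV1, NDUFA13 and NDUFV3, at -0.35, -0.29 and -0.26. COX6C did not pass, with a log2 difference of -0.06. The 687 short genes had a median of -0.20, with 27.7% lower. Without AGO1/2/3 knockout replicate 2 the count of nuclear members lower was 9. It was 10 to 12 without any 1 of the AGO1/2 knockout samples, 11 without AGO1/2/3 knockout replicate 1, and 33 in a fit of these 6 samples alone. At an unadjusted p of 0.05 or less 2 members were higher, and DESeq2's Wald test called 0 higher.

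All 13 mitochondrial genes were on the lower side in AGO1/2/3 against AGO1/2 knockout cells, and 7 of 13 were called lower, with a median of -0.34. These were MT-ND2, MT-ND4, MT-ND4L, MT-CO2, MT-CO3, MT-ATP6 and MT-ATP8. MT-ND4 lies on the same transcript as MT-ND4L, and MT-ATP6 on that of MT-ATP8, so the 7 calls are not independent of each other. MT-ATP6 and MT-ATP8 had the lowest values among the called genes, a log2 fold change of -0.43 ± 0.11 (edgeR adjusted p = 0.013) and a log2 fold change of -0.51 ± 0.10 (edgeR adjusted p = 0.0026). The AGO1/2/3 knockout samples of all 7 lay below the AGO1/2 knockout samples. MT-ATP6 had 6765, 6487 and 7819 CPM in AGO1/2 and 5717, 4862 and 5014 CPM in AGO1/2/3 knockout cells. Without AGO1/2/3 knockout replicate 2, 1 of the 13 was called, and without AGO1/2 knockout replicate 3, 4 were.

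In AGO2 knockout cells the nuclear members lay on the other side. Compared with wild type, 13 of 75 were higher and 0 lower, with a median of 0.31 and 69 of 75 above 0, while 8.55% of all genes tested were higher and 10.8% lower. UQCRQ, a small subunit of complex III, stood at 64.5, 36.0 and 65.0 CPM in wild-type and 84.4, 93.5 and 94.5 CPM in AGO2 knockout cells, a log2 fold change of 0.72 ± 0.20 (edgeR adjusted p = 0.023). NDUFB10 and NDUFB1, accessory subunits of the complex I membrane arm, stood at 80.0, 89.1 and 95.4 CPM and 35.6, 33.8 and 37.2 CPM, with log2 fold changes of 0.66 and 0.63. All AGO2 knockout samples lay above all wild-type samples for these 3 genes, and wild-type replicate 2 was the lowest sample in each. The smallest called differences were those of SDHC, ATP5MJ and NDUFB5, at 0.25, 0.34 and 0.37, and SDHD and ATP5MC3 were higher by 0.56 and 0.55. Without wild-type replicate 2 the count was 1 and the median 0.14. The count was also 1 without AGO2 knockout replicate 2 or 3 and in a fit of the 6 samples alone, 3 without wild-type replicate 1, and 23 without wild-type replicate 3. It moved with samples of other lines too, since these set the shared spread, to 20 without AGO1 knockout replicate 3 and to between 5 and 7 without AGO1/2 knockout replicate 1 or 2 or any 1 AGO1/2/3 knockout sample. At an unadjusted p of 0.05 or less 37 members were higher and 1 lower, and DESeq2's Wald test called 21 higher and 0 lower. The short genes had a median of 0.15, with 13.2% higher.

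The mitochondrial genes of AGO2 knockout cells had a median of 0.01, which lay between -0.03 and 0.07 when 1 library was left out. MT-ND1 was higher, at 5336, 5251 and 4896 CPM against 4173, 4123 and 4016 CPM in wild type, a log2 fold change of 0.33 ± 0.10 (edgeR adjusted p = 0.034). MT-ND4L was lower, at 1530.2, 1451 and 1556 CPM against 1828, 1938 and 2226 CPM, a log2 fold change of -0.40 ± 0.10 (edgeR adjusted p = 0.016). Neither gene's samples overlapped between the groups. MT-ND4, which shares bases and a transcript with MT-ND4L, was not called, with a log2 difference of 0.04 ± 0.10. The part of read assignment between these genes in their values was not tested. The MT-ND1 call was lost without any 1 of the 6 samples compared or AGO1/2/3 knockout replicate 1 or 3, and that of MT-ND4L without AGO2 knockout replicate 2. Both were lost in a fit of the 6 samples alone.

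In AGO1 knockout cells the calls fell mainly on mitochondrial genes. Here 5 of 13 were higher and 0 lower, with all 13 above 0 and a median of 0.32, while 3.17% of all genes tested were higher and 5.50% lower. MT-ND1, the subunit of complex I next to the ubiquinone site, stood at 6005, 5954 and 6106 CPM, a log2 fold change of 0.55 ± 0.10 (edgeR adjusted p = 0.0031). MT-CO3, the third core subunit of complex IV, stood at 9878, 11118 and 10621 CPM in wild-type and 13025, 14524 and 16934 CPM in AGO1 knockout cells, a log2 fold change of 0.49 ± 0.12 (edgeR adjusted p = 0.021). MT-ATP6, the proton channel of complex V, stood at 5559, 6188 and 6065 CPM in wild-type and 7225, 8302 and 9360.0 CPM in AGO1 knockout cells, a log2 fold change of 0.48 ± 0.11 (edgeR adjusted p = 0.017). MT-ATP8 and MT-ND2 were higher by 0.40 and 0.39. MT-ATP8 and MT-ATP6 lie on the same transcript, so their calls are not independent of each other. For all 5 genes the AGO1 knockout samples lay above every wild-type sample. MT-CO1 and MT-CYB were not called, with log2 differences of 0.12 ± 0.12 and 0.04 ± 0.16. The count was 1 without wild-type replicate 1 or AGO1 knockout replicate 2, 3 without AGO1 knockout replicate 3, and 0 in a fit of the 6 samples alone. DESeq2's Wald test called 7 higher and 0 lower.

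Nuclear members of AGO1 knockout cells had 1 call in each direction and a median of 0.12. Without wild-type replicate 2 they had 0 higher and 2 lower and the median turned to -0.03. The median was 0.19 and 0.25 without wild-type replicates 1 and 3, and 0.05 and 0.25 without AGO1 knockout replicates 1 and 3. ATP5F1D was higher, at 57.5, 59.5 and 49.4 CPM, a log2 fold change of 0.38 ± 0.11 (edgeR adjusted p = 0.038). NDUFC2, a complex I membrane-arm subunit, was lower, at 49.2, 34.8 and 55.3 CPM in wild-type and 33.0, 29.7 and 22.5 CPM in AGO1 knockout cells, a log2 fold change of -0.71 ± 0.17 (edgeR adjusted p = 0.016). Neither gene's samples overlapped between the groups. Both calls were lost in a fit of the 6 samples alone. That of NDUFC2 was also lost without wild-type replicate 1 or 3 or AGO1 knockout replicate 2 or 3, and that of ATP5F1D without any 1 of 8 samples, among them wild-type replicates 2 and 3 and AGO1 knockout replicates 1 and 2.

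**Figure D5:**
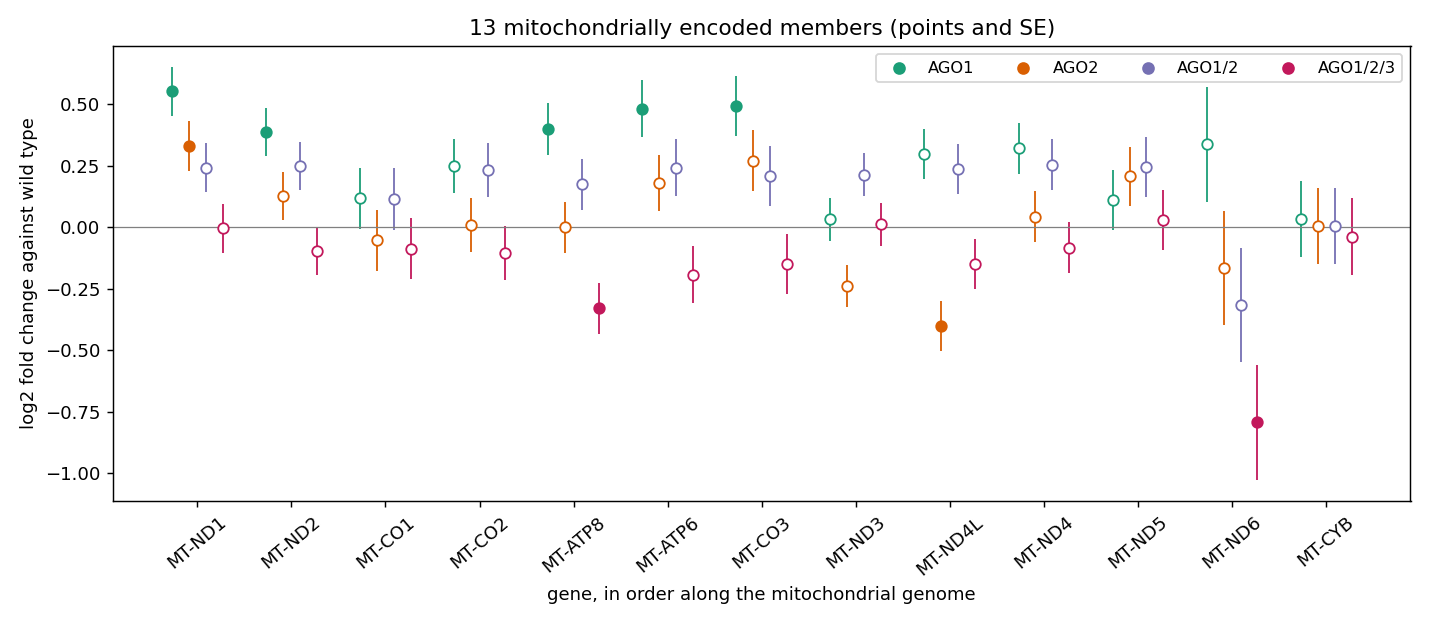
Log2 fold change against wild type of the 13 mitochondrial members, in order along the mitochondrial genome, for the 4 knockout lines. Points are estimates over 3 samples per line with their SE, filled where the adjusted p was 0.05 or less. MT-ND1 is highest in AGO1 knockout cells at 0.55 and MT-ND6 lowest in AGO1/2/3 knockout cells at -0.79. The same wild-type samples enter all 4 comparisons.

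Along the mitochondrial genome the differences were unequal within a line. In AGO2 knockout cells MT-ND1, the first coding gene, was at 0.33 and MT-ND4L at -0.40. In AGO1 knockout cells values ran from 0.03 for MT-ND3 to 0.55 for MT-ND1. MT-CYB, the only mitochondrial gene of complex III, was not called in any of the 5 comparisons, with log2 differences between -0.04 and 0.04. Whether any pair of genes differed from each other within a line was not tested.

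Promoters of nuclear members were searched because called members lay in the same direction in a line. RefSeq promoter windows (GRCh38.p14, 250 bases before to 50 after the start, 300 in all) were matched for 60 of 75 nuclear members. The strings were searched on both strands. The NRF1 motif, which has 1 free base, was present in 14 of 60 (23.3%) and in 8.27% of 15275 protein-coding promoters of the same length. The ETS string CCGGAAG, which GABP binds, was present in 19 of 60 (31.7%) and in 14.2% of all. The YY1 motif was present in 8 of 60 (13.3%) and in 1.98% of all. In total 35 promoters held at least 1 string and 6 held more than 1, and no strings shared a base. Among the 27 matched members lower in AGO1/2/3 knockout cells, 4 held the NRF1-type, 10 the ETS-type and 4 the YY1-type string. Among the 33 matched members not called, the numbers were 10, 9 and 4. The 30-base windows below show the NRF1-type string in capitals, 5′ to 3′ on the gene's strand, for complex II and V members with different values in AGO1/2/3 knockout cells.
SDHD: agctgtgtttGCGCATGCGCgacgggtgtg
SDHA: ggtccgctttGCGCAGGCGCggcgccccca
ATP5ME: cgcagcaactGCGCAGGCGCagccgatgat
ATP5F1C: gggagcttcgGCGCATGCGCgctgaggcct
The windows lie at chr11:112086753-112086782 (plus strand), chr5:218144-218173 (plus strand), chr4:674476-674505 (minus strand) and chr10:7788145-7788174 (plus strand). Their AGO1/2/3 values against wild type, on the log2 scale, were -0.71 for SDHD and -0.75 for ATP5ME, both called lower, and 0.26 for SDHA and -0.14 for ATP5F1C, neither called. The string was thus present in promoters of genes on both sides of the test, and a match is a description of the letters only.

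Genes around the complexes were read from lists. Their counts stand beside the shares of all genes tested. These were 19.8% lower and 20.3% higher in AGO1/2/3 and 8.55% higher and 10.8% lower in AGO2 knockout cells. List counts without wild-type replicate 2, which was low for nuclear members, are not given, and its part in them was not tested. Of 9 transcription factors and coactivators of nuclear mitochondrial genes, 4 were lower in AGO1/2/3 knockout cells and 0 higher. MYC, a growth regulator on chromosome 8, stood at 299.6, 226 and 314 CPM in wild-type and 50.9, 58.8 and 65.9 CPM in AGO1/2/3 knockout cells, a log2 fold change of -2.26 ± 0.14 (edgeR adjusted p = 1.6e-08). ESRRA, the estrogen-related receptor that drives OXPHOS genes, fell by 1.27 on the log2 scale, and its coactivators PPARGC1B and PPRC1 by 1.04 and 0.55. NRF1 and GABPA were not called, with log2 differences of 0.17 ± 0.13 and 0.11 ± 0.09. PPARGC1A was at 0.513 CPM or less in every sample and was not called.

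Of 39 genes for mitochondrial DNA upkeep, transcription and RNA handling, 15 (38.5%) were lower and 3 (7.69%) higher in AGO1/2/3 knockout cells. TFB2M, a partner of the mitochondrial RNA polymerase, stood at 24.2, 23.6 and 25.8 CPM in wild-type and 11.8, 10.9 and 11.3 CPM in AGO1/2/3 knockout cells, a log2 fold change of -1.12 ± 0.12 (edgeR adjusted p = 2.2e-06). SLIRP and LRPPRC, which together stabilize mitochondrial mRNAs, fell by 0.96 and 0.43 on the log2 scale, the helicase SUPV3L1 by 0.64 and the poly(A) polymerase MTPAP by 0.35. The polymerase POLRMT, the packaging factor TFAM and the nuclease PNPT1 were not called, at -0.16, -0.26 and -0.42. In AGO2 knockout cells 15 of 39 were higher and 0 lower. TFAM stood at 97.8, 106 and 99.3 CPM against 69.8, 52.0 and 73.4 CPM in wild type, a log2 fold change of 0.64 ± 0.13 (edgeR adjusted p = 0.0069). The TFAM call was kept without wild-type replicate 2.

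Mitochondrial ribosomal protein genes serve translation of the 13 mitochondrial mRNAs. Of these genes, 27 of 78 (34.6%) were lower and 0 higher in AGO1/2/3 knockout cells (median -0.22), against 37.3% lower among the short genes. In AGO2 knockout cells 31 of 78 (39.7%) were higher and 0 lower (median 0.39), against 13.2% higher among the short genes. Assembly factors of the complexes had 18 of 48 lower and 3 higher in AGO1/2/3, and 17 of 48 higher and 0 lower in AGO2 knockout cells. In AGO1 knockout cells 1 of 39, 1 of 78 and 0 of 48 genes of these 3 lists were higher and 0, 0 and 2 lower, against 3.17% higher and 5.50% lower over all genes tested. In AGO1/2 knockout cells 6 of 39, 3 of 78 (3.85%) and 8 of 48 were lower and 0, 0 and 3 higher, against 8.35% lower and 8.37% higher over all genes tested. Each list holds genes on chromosome 8, among them TOP1MT, MTERF3, MRPL13 and TMEM70. List counts were not split by chromosome, and the part of the chromosome 8 shift in them was not tested. Of 12 tested respiratory chain genes outside the rule, 5 were lower in AGO1/2/3 knockout cells. They included CYC1, the cytochrome c1 of complex III on chromosome 8, which went from 86.3, 62.3 and 94.0 to 26.6, 24.1 and 27.6 CPM, a log2 fold change of -1.63 ± 0.15 (edgeR adjusted p = 5.4e-07), and ATP5IF1, the inhibitor of the ATP synthase, which fell by 0.44 on the log2 scale. CYCS, cytochrome c itself, was not called, with a log2 difference of -0.29 ± 0.15.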

How the data were processed

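RNA from 15 samples of 5 HCT116 lines was sequenced by the study as paired-end, stranded, ribosomal RNA-depleted total RNA libraries. The authors filtered reads, aligned them with STAR to hg38 and estimated gene abundance with Salmon, and deposited each estimated count per gene (an expected count that need not be whole), 1 file per sample and not scaled for depth. The submitters' processing notes name STAR 2.5.3a and Salmon 0.11.0, and the published methods name other versions. Total counts per sample limit the precision of low genes, and with 3 samples per line the median SE of a log2 fold change was 0.20. No pair of files held identical values.

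The estimates were rounded to the nearest whole number. Gene names came from GENCODE 44 by Ensembl identifier (57167 of 57875 matched). All 15 samples entered 1 edgeR 4.0.16 quasi-likelihood fit (R 4.3.3, TMM, filterByExpr), with a mean per line and no covariate, and called genes had a Benjamini-Hochberg adjusted p of 0.05 or less over all 22842 genes tested. The scripts were tested on simulated data. CPM values use the TMM-scaled library sizes. Shares are of unscaled totals. RefSeq promoter windows ran from 250 bases before to 50 after each start. The members and gene lists were chosen with earlier results of these data known, and the grouping of subunits within complex V was made after the values were seen.

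Named genes were all mitochondrial coding genes, the 2 highest and 2 lowest called nuclear members per complex in AGO1/2/3 knockout against wild type, the 3 highest and 3 lowest called nuclear members in each other comparison, members on chromosome 8, complex II and subunit c genes, and a set of regulators. Others named beside them were chosen after their values were seen. Same-numbered samples of different lines did not deviate together (mean correlation -0.0125 over 30 pairs), so the replicate number was not used as a block. Alternatives were other scalings (DESeq2 1.42.0 size factors, total counts, genes outside the mitochondrial genome), other filters, a 2-fold limit, DESeq2's Wald test, 6-sample fits, a replicate block, leaving out each library and, added after the data were seen, a covariate for the first component of deviations within lines. AGO2-bound RNA samples of the series were not analysed here.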

Additional observations from a re-analysis of the deposited data

How the results depend on the processing

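Counts are of members called higher or lower, and comparisons are against wild type unless AGO1/2 is named. Requiring at least a 2-fold change left nuclear counts of 0 higher and 0 lower in AGO1, 0 higher in AGO2, 1 lower in AGO1/2, 5 lower in AGO1/2/3 and 0 lower in AGO1/2/3 against AGO1/2 knockout cells, and mitochondrial counts of 0 in every comparison. Scaling by total counts moved the median of all genes tested by over 0.1 in AGO2 and AGO1/2/3 knockout cells, from -0.02 to -0.14 and from -0.01 to -0.15. It gave nuclear counts of 0 higher in AGO1, 4 higher and 2 lower in AGO2 (median 0.20) and 13 lower in AGO1/2 (median -0.15), and nuclear and mitochondrial medians of -0.44 and -0.24 in AGO1/2/3 with 6 mitochondrial genes lower. Mitochondrial results in AGO2 became 0 higher and 2 lower (median -0.11), and the AGO1/2 mitochondrial median became 0.14. Over all genes tested, this scaling called 511 higher and 1985 lower in AGO1 and 735 higher and 3595 lower in AGO2. It called 1394 higher and 2597 lower in AGO1/2, and 3459 higher and 5962 lower in AGO1/2/3. Without a filter on low counts, nuclear counts were 0 higher in AGO1 and 26 higher in AGO2. With at least 10 counts in every sample they were 1 lower in AGO2 and 11 lower in AGO1/2, and AGO2 had 0 mitochondrial genes higher and 2 lower.

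Fits of only the 6 samples compared gave nuclear counts of 0 higher and 0 lower in AGO1, 1 higher in AGO2, 2 lower in AGO1/2, and 1 higher and 33 lower in AGO1/2/3 against AGO1/2, and no mitochondrial gene called in AGO1 (0 higher) or AGO2 (0 higher, 0 lower). DESeq2's Wald test gave nuclear counts of 2 higher in AGO1, 21 higher in AGO2 and 1 higher in AGO1/2, and 2 mitochondrial genes lower in AGO2. With the covariate chosen after seeing the data, nuclear counts were 19 higher in AGO1, 50 higher in AGO2, 3 higher and 17 lower in AGO1/2, 4 higher in AGO1/2/3, and 1 higher and 39 lower in AGO1/2/3 against AGO1/2. Mitochondrial counts were then 2 higher and 2 lower in AGO2 and 2 higher in AGO1/2. The cause of these differences was not tested. With abundant structural RNAs left out of the totals, mitochondrial shares were 8.61% in wild type, 9.44% in AGO1/2 and 7.39% in AGO1/2/3, and nuclear shares 0.737% in AGO2, 0.584% in AGO1/2 and 0.472% in AGO1/2/3. Scaling from DESeq2 size factors or from genes outside the mitochondrial genome moved no count by over 1.5 times.

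Leaving out 1 library at a time gave nuclear counts in AGO1 of 0 to 2 higher and 0 to 2 lower (median -0.03 to 0.25), in AGO2 of 1 to 23 higher (median 0.14 to 0.39), in AGO1/2 of 2 to 16 lower (median -0.25 to 0.026) and in AGO1/2/3 of 0 to 1 higher and 27 to 53 lower (median -0.46 to -0.23). Against AGO1/2, AGO1/2/3 had 0 to 1 higher and 9 to 27 lower (median -0.31 to -0.22). Mitochondrial counts were 1 to 7 higher in AGO1, 0 to 1 higher and 0 to 1 lower in AGO2, 0 to 1 higher in AGO1/2, 1 to 2 lower in AGO1/2/3, and 1 to 7 lower in AGO1/2/3 against AGO1/2. Mitochondrial medians were 0.27 to 0.40, -0.03 to 0.07, 0.16 to 0.24, -0.16 to -0.07 and -0.38 to -0.29 in the same order. In AGO1/2 the high end of the nuclear range, 16, came without wild-type replicate 2. The low end, 2, came without wild-type replicate 3 or AGO1/2 knockout replicate 2. The replicate block moved no count by over 1.5 times, with 9 nuclear members higher in AGO2 and 31 lower in AGO1/2/3. Of 70 called values of named members, 29 were called under every alternative other than the 2-fold limit, which was not applied to this count. The other 41 were lost under at least 1 of these alternatives, and none changed sign while called.

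Single edited lines, 3 samples each, and wild-type replicate 2 limit these comparisons. Low members such as ATP5MGL and estimated counts of overlapping genes carry more error than the tests show.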

Other observations

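Mitochondrially encoded RNAs that code no protein were read as a separate list. The list holds the ribosomal RNAs MT-RNR1 and MT-RNR2 and the tRNAs, and 22 of its 24 genes were tested. In AGO1/2/3 knockout cells 10 of 20 tested tRNAs were lower and 0 higher than in wild type by edgeR's quasi-likelihood test. Over all genes tested 19.8% were lower and 20.3% higher. The median of these tRNAs was -0.65 on the log2 scale. MT-TD had the lowest value, -1.49 ± 0.36, and MT-TQ the lowest adjusted p among them, with a log2 fold change of -0.76 ± 0.14 (edgeR adjusted p = 0.00047). MT-TD and MT-TQ were singled out after their values were seen. Raw counts of MT-TD in replicates 1 to 3 were 47, 51 and 56 in wild type and 30, 12 and 14 in AGO1/2/3. They were 18, 4 and 6 in AGO1, 65, 65 and 55 in AGO2 and 18, 4 and 8 in AGO1/2. For MT-TQ they were 270, 235 and 278 in wild type, 211, 119 and 141 in AGO1/2/3 and 137, 113 and 96 in AGO1/2. Low values of these tRNAs were therefore not particular to AGO1/2/3. tRNAs are short and heavily modified, and these libraries were not made to capture them. For the AGO1 line 1 of the 20 tRNAs (5%) was higher and 2 (10%) lower, against 3.17% and 5.50% of all genes tested. For AGO2 2 (10%) were higher and 5 (25%) lower, against 8.55% and 10.8%. For AGO1/2 0 were higher and 3 (15%) lower, against 8.37% and 8.35%. In AGO1/2/3 against AGO1/2 knockout cells 6 (30%) were lower, against 10.0% of all genes tested.

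Ribosomal RNA was removed before sequencing, and MT-RNR1 and MT-RNR2 were near the floor except in AGO2 knockout cells. MT-RNR1 stood at 11.4, 19.6 and 78.4 CPM in the AGO2 knockout samples and at 2.80 CPM or less in the other 12. MT-RNR2 stood at 17.7, 27.0 and 114 CPM in the AGO2 knockout samples and at 3.80 CPM or less elsewhere. In both genes AGO2 knockout replicate 3 was the highest sample, and all AGO2 knockout samples lay above all others. The efficiency of the ribosomal RNA removal in these libraries was not tested.

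Counts of the small lists below stand beside the shares of all genes tested. These were 3.17% higher and 5.50% lower in AGO1 and 8.55% higher and 10.8% lower in AGO2 knockout cells. In AGO1/2 they were 8.37% and 8.35%, and in AGO1/2/3 knockout cells 20.3% and 19.8%. Among abundant structural RNAs (RN7SL1, RN7SL2, RN7SK, RMRP and RPPH1), 3 of 5 were higher in AGO1, 4 in AGO1/2, 2 in AGO1/2/3 and 2 in AGO2 knockout cells, where 1 was lower. Of 6 tested epithelial markers 1 was higher and 3 lower in AGO1/2/3, 2 higher and 2 lower in AGO1/2, 1 higher and 1 lower in AGO2, and 2 lower in the AGO1 line. Of 4 markers of other cell types, 1 was lower in each of the AGO1, AGO2 and AGO1/2 knockout lines and 0 were called in AGO1/2/3 knockout cells. Factors of nuclear mitochondrial genes had 0 of 9 called in AGO1, 2 higher in AGO2 and 2 lower in AGO1/2 knockout cells, and respiratory chain genes outside the rule had 0 of 12, 2 higher and 1 lower, and 2 lower in the same lines.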
